A study of Mus musculus with 48 samples.

Results

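The 10 genes described here carry glucose into the cell and break it down to lactate: the transporter gene Slc2a1, the hexokinase genes Hk1 and Hk2, the phosphofructokinase genes Pfkp and Pfkl, and Aldoa, Tpi1, Pgk1, Pgam1 and Ldha. They were listed by name, with earlier results of these data known, and their values are those of the 13 probe sets on the array that name 1 of these symbols alone, out of 12488 probe sets and 8252 genes with a probe set of their own. Their RNA was compared between mouse limb buds exposed in the womb to a teratogen and limb buds exposed to the vehicle alone. Pregnant mice, of a strain not given in the sources used here, received 1 injection into the abdomen on gestation day 9.5: cadmium sulfate (4 mg/kg) in phosphate-buffered saline (PBS), PBS, acetazolamide (400 mg/kg) in vegetable oil, or the oil. Acetazolamide inhibits carbonic anhydrases, and cadmium is a toxic metal. The right forelimb buds were collected 3 h or 12 h later and split with trypsin into ectoderm, the outer epithelium, and mesoderm, the loose tissue beneath it. Each of the 16 groups (2 agents and their 2 vehicles, 2 tissues, 2 times) had 3 Affymetrix arrays. Tissue of several litters was pooled for an RNA sample, so an array stands for a pool of embryos and not for 1 embryo. The labels do not say that the 3 pools of a group came from separate sets of dams, so the p-values measure the spread between these samples, which may be partly technical.

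Glycolysis turns glucose into pyruvate in the cytosol. Transporters such as GLUT1, the product of Slc2a1, let glucose in, hexokinases trap it as glucose 6-phosphate, and phosphofructokinase commits it to breakdown in a step that is tightly regulated. Aldolase, triosephosphate isomerase, phosphoglycerate kinase and phosphoglycerate mutase carry the carbon on towards pyruvate, and lactate dehydrogenase A reduces pyruvate to lactate so that the pathway can continue. Many of these genes are targets of the oxygen-regulated factor HIF-1, and rodent embryos soon after implantation rely strongly on glycolysis.

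Each deposited value sets an array relative to vehicle arrays of its own tissue and time point, and holds no expression level. In all 8 comparisons the ratios of vehicle arrays 1 and 2 add up to 2 at each probe set and vehicle array 3 is 1. On the log2 scale used below, vehicle array 3 therefore sits at 0 and vehicle arrays 1 and 2 mirror each other about 0. Treated arrays 1 and 2 appear to be divided by the mean of vehicle arrays 1 and 2, and treated array 3 by vehicle array 3. Where all arrays of a comparison are ranked below, ratios with unlike denominators are set side by side. Separate groups thus describe the ratios and do not show that RNA was higher or lower on each array. Because no level was kept, the labelled tissues could not be checked against their markers, detection above background is unknown, and no gene's level can be set against that of another gene. Over all genes, the array medians lay between -0.12 and 0.10. An effect is the treated minus the vehicle mean in log2 (n = 3 in each group), with its standard error from limma, fitted to all 8252 genes on all 48 arrays, and a gene is said to rise or fall where its Benjamini-Hochberg adjusted p over all genes is under 0.05. In tissue RNA, a change in RNA per cell and a change in the share of cells that make the RNA cannot be told apart.

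Of the 10 genes, 2 rose, Pfkp and Pfkl, both in mesoderm 12 h after cadmium. Both encode phosphofructokinase 1, the enzyme that adds the second phosphate to the sugar, Pfkp its platelet type and Pfkl its liver type. In the same comparison 2.28% of all genes passed the threshold and 1.05% passed it as higher. Aldoa, whose product splits the sugar, and Tpi1, whose product interconverts the pieces, also had higher ratios on every cadmium array than on any PBS array. Neither passed. For these 4 of the 10 genes the ratios of both groups were fully separate, where 9.80% of all genes had all treated arrays above all vehicle arrays. The median effect of the 10 genes was 0.21 and that of all genes 0.01, and 9 of the 10 effects were above 0, as were 54.4% of those of all genes. None of the 10 genes passed in any of the other 7 comparisons by limma.

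**Figure D1:**
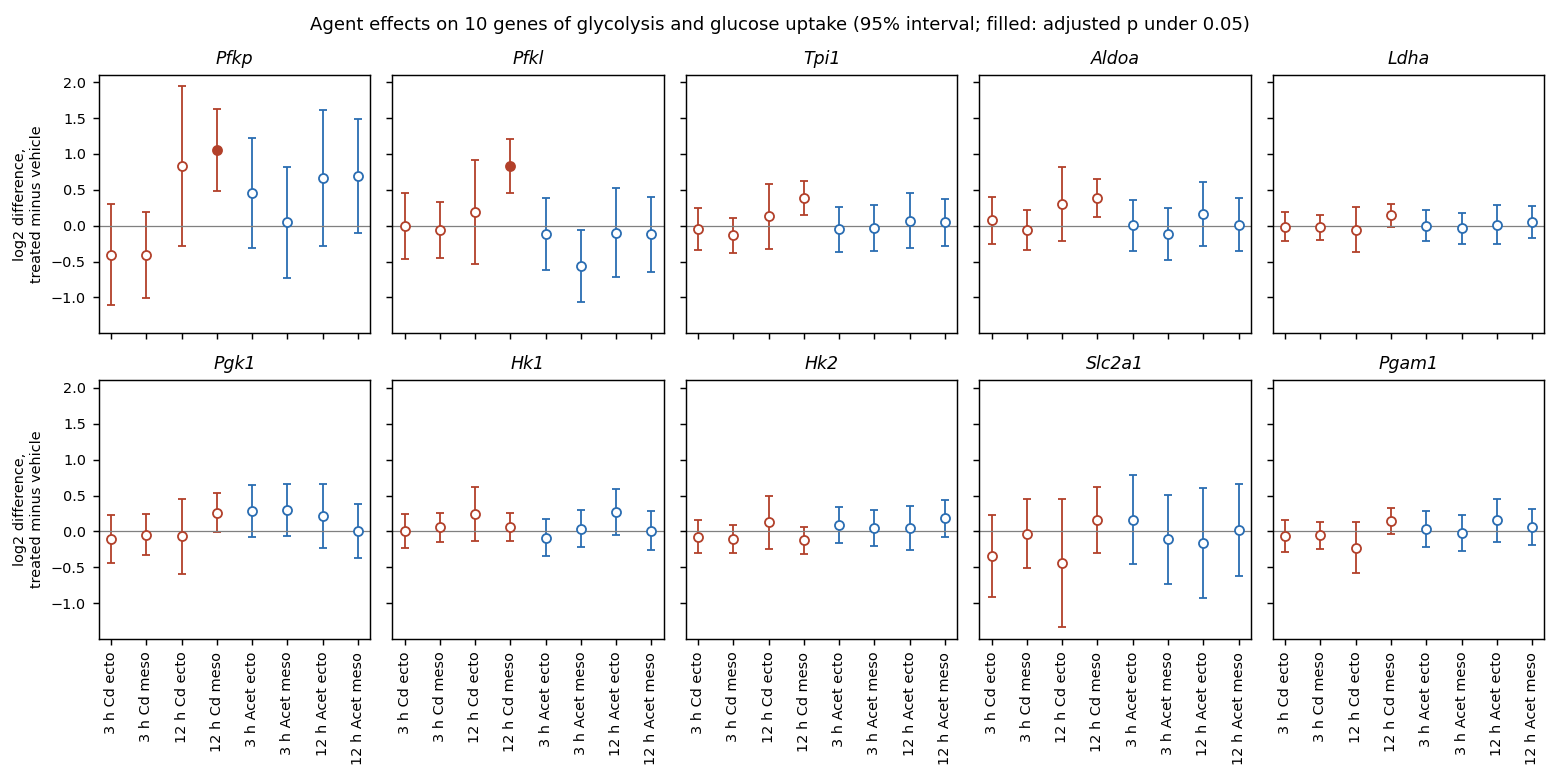
Agent effects on the 10 genes (log2 difference, treated minus vehicle, vertical axis) in the 8 comparisons, with 95% intervals as bars, cadmium (Cd) in red and acetazolamide (Acet) in blue. Filled points mark an adjusted p under 0.05 by limma, which only Pfkp at 1.05 and Pfkl at 0.83 reached, both in 12 h cadmium mesoderm.

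Pfkl (Entrez 18641) has 1 probe set, 92637_at. In 12 h mesoderm its log2 ratio was 0.60, 0.89 and 1.01 on cadmium arrays 1, 2 and 3, and -0.01, 0.01 and 0 on the PBS arrays. All cadmium ratios lay well above all PBS ratios. PBS arrays 1 and 2 hardly differed from each other, while PBS array 3 is 0 by construction and cannot be set against them. The effect was 0.83 ± 0.18 (SE), a 1.78-fold rise (95% interval 0.46 to 1.20 in log2, adjusted p = 0.0104 by limma). The call was lost without PBS array 3 or cadmium array 3 (effect 0.74, adjusted p = 0.122 for either) and without cadmium array 2 (adjusted p = 0.0576). Leaving out either array 3 amounts to the same fit, because the array 3 that remains has a mean of its own and adds nothing. It held without each of the other 3 arrays of the comparison (adjusted p from 0.00546 to 0.0266), and in all 42 fits that left out an array of another comparison (adjusted p at most 0.0255).

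Pfkp (Entrez 56421) has 2 probe sets, 97833_at and 97834_g_at, designed from the same transcript entry, AI853802. The first read 0.59, 0.10 and 1.84 on cadmium arrays 1, 2 and 3 of 12 h mesoderm and 0.23, -0.27 and 0 on the PBS arrays. The second read 1.01, 0.38 and 2.34 on the cadmium arrays and 0.18, -0.21 and 0 on the PBS arrays. Cadmium array 3 was far the highest in both, and by the first probe set cadmium array 2 lay below PBS array 1, so that those groups overlapped. Averaged over both probe sets the effect was 1.05 ± 0.28, a 2.07-fold rise (95% interval 0.48 to 1.62, adjusted p = 0.0405 by limma). Tested alone, 97834_g_at gave 1.25 (adjusted p = 0.0473) and 97833_at gave 0.85 (adjusted p = 0.0675).

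The rise of Pfkp rested on array 3. Without cadmium array 3, or without PBS array 3, which is again the same fit, its effect was 0.53 (adjusted p = 0.544 for either). It did not pass without PBS array 2 (adjusted p = 0.0774) or cadmium array 1 (adjusted p = 0.0528). It was larger without PBS array 1 (1.33, adjusted p = 0.00945) and without cadmium array 2 (1.36, adjusted p = 0.0119). Of the 42 fits that left out an array of another comparison, it passed in 33 (adjusted p at most 0.0687). The number of the 10 genes that passed was 2 or 3 in 35 of all 48 fits without 1 array, with the like fits without either array 3 counted separately. The ratios of cadmium array 3 were high for most of the pathway. Their median over the 10 genes was 0.53 in log2, against 0.20 and 0.09 on cadmium arrays 1 and 2, and their median over all genes was 0.05. As this array appears to be divided by PBS array 3 alone, a high cadmium array 3 and a low PBS array 3 cannot be told apart.

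**Figure D2:**
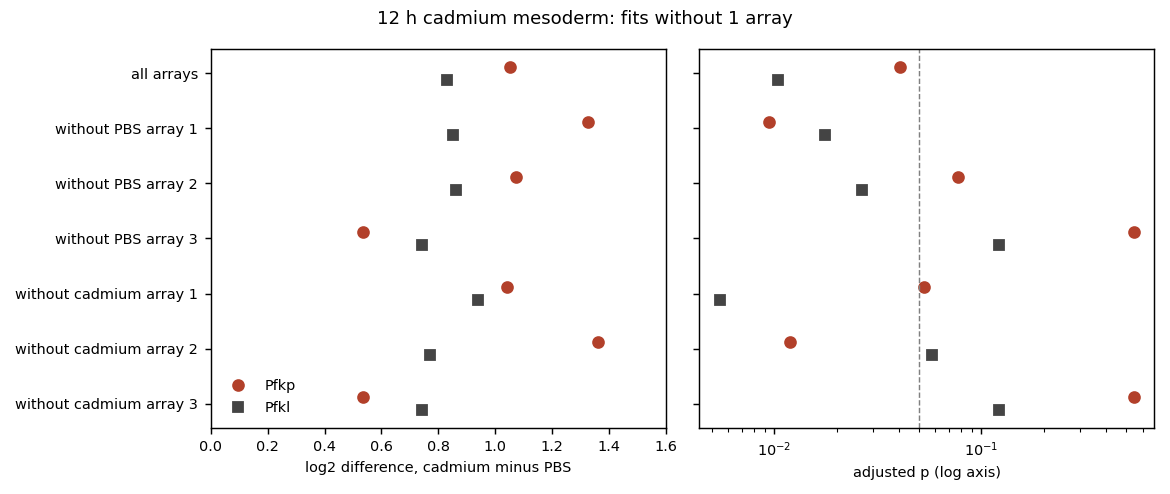
Effect (left, log2 difference, cadmium minus PBS) and adjusted p by limma (right, log axis, dashed line at 0.05) of Pfkp (circles) and Pfkl (squares) in 12 h mesoderm with all arrays and without each of the 6 arrays in turn. Without either array 3 the effect of Pfkp drops to 0.53 while that of Pfkl stays at 0.74, and neither passes the threshold.

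The test also leaned on how the spread was estimated. With 1 spread shared by all comparisons, and no precision weight for each, neither gene passed (adjusted p = 0.613 for Pfkp and 0.427 for Pfkl). In a fit of these 6 arrays alone the adjusted p was 0.312 for Pfkp and 0.131 for Pfkl. Both effects stayed above 0 in every setting tried. Settings that changed only the weights, the blocks or the spread left the effects unchanged, so the sign could not change there.

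Aldoa, the main aldolase of embryonic tissue, came next in size (0.39 ± 0.13, adjusted p = 0.127 by limma). Its probe set 161889_f_at read 0.34, 0.48 and 0.63 on the cadmium arrays of 12 h mesoderm, and 160090_f_at read 0.05, 0.37 and 0.47. The PBS arrays lay between -0.03 and 0.03 in both, so all cadmium arrays were above them, cadmium array 1 only narrowly by the second probe set. The f in these probe set names marks probes that can match several members of a sequence family. Tpi1, which interconverts the 3-carbon products of aldolase, was at 0.29, 0.26 and 0.59 on the cadmium arrays and 0.12, -0.13 and 0 on the PBS arrays. Its effect was 0.39 ± 0.11 (adjusted p = 0.0732), with cadmium array 3 again the highest and the groups apart. Without PBS array 1 Tpi1 passed (adjusted p = 0.0206), and without cadmium array 1 Aldoa did (adjusted p = 0.0439).

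The other 6 genes had effects from -0.12 to 0.26 in 12 h cadmium mesoderm, with adjusted p of at least 0.374. Pgk1, which makes the first ATP of the pathway, was at 0.23, -0.01 and 0.51 on the cadmium arrays and 0.24, -0.29 and 0 on the PBS arrays. Those groups overlapped, with cadmium array 3 the highest (0.26 ± 0.13). Pgam1, which moves the phosphate of phosphoglycerate, was at 0.20, 0.06 and 0.18 on the cadmium arrays and had an effect of 0.15 ± 0.09. Ldha stood at 0.20, 0.07 and 0.13 on the cadmium arrays and at 0.20, -0.23 and 0 on the PBS arrays, so that the groups overlapped. Its effect was 0.14 ± 0.08 (95% interval -0.02 to 0.31). The widely expressed hexokinase gene Hk1 had an effect of 0.06 ± 0.09 and Hk2, the insulin- and hypoxia-responsive form, one of -0.12 ± 0.09.

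Slc2a1 scattered widely in 12 h cadmium mesoderm, with an SD of 0.90 over the cadmium arrays against 0.95 for Pfkp. Its log2 ratio was -0.05, -0.63 and 1.14 on cadmium arrays 1, 2 and 3, and 0.13, -0.14 and 0 on the PBS arrays. Cadmium array 2 was below all PBS arrays and cadmium array 3 above them, and the effect of 0.16 ± 0.22 (adjusted p = 0.862) turned negative in 3 of the 14 alternative settings.

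**Figure D3:**
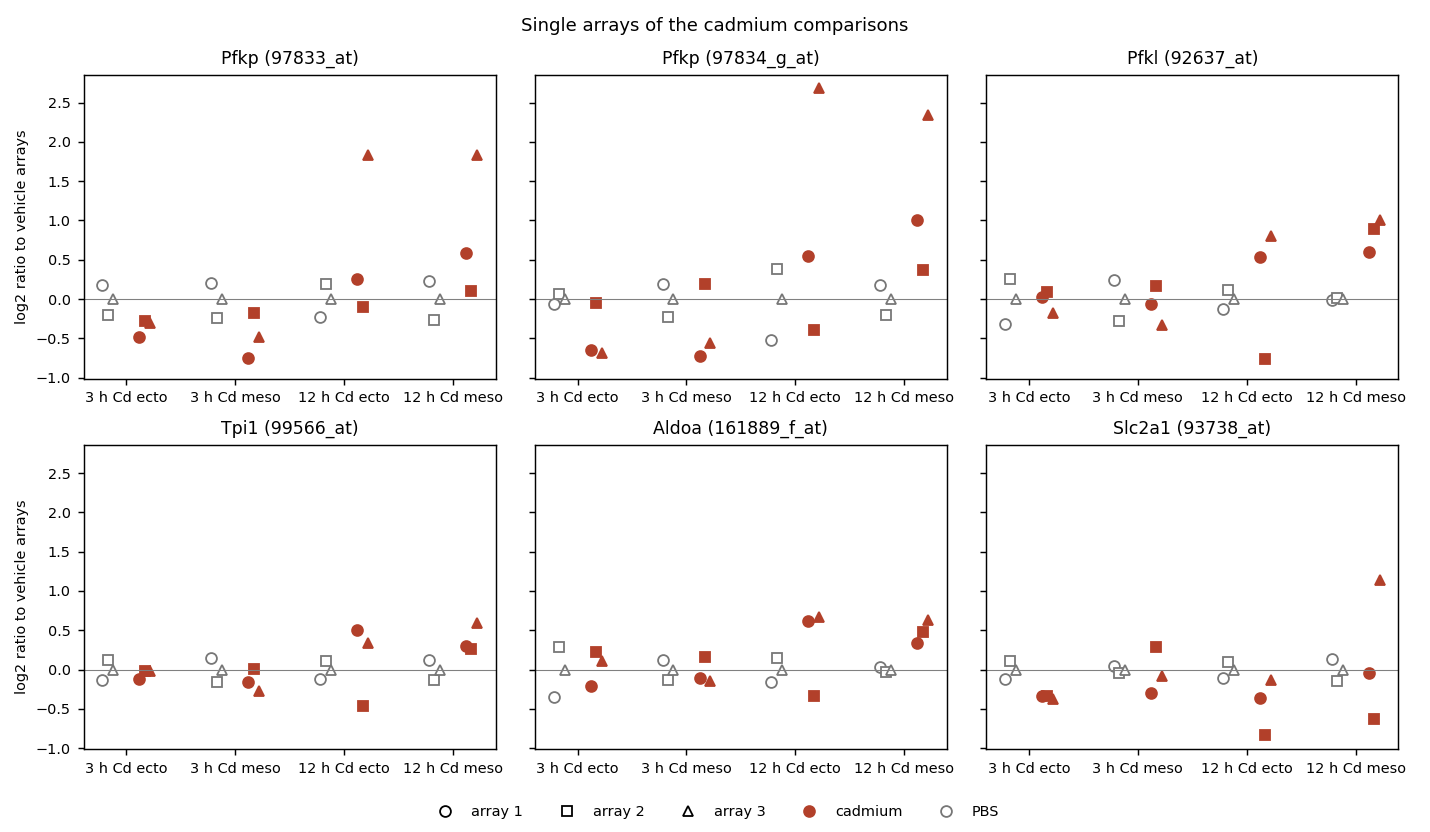
Log2 ratio to vehicle arrays (vertical axis) on single PBS arrays (open, grey) and cadmium arrays (filled, red) in the 4 cadmium comparisons, for both Pfkp probe sets and 1 probe set each of Pfkl, Tpi1, Aldoa and Slc2a1; circles, squares and triangles are arrays 1, 2 and 3. In 12 h mesoderm Pfkl lies between 0.60 and 1.01 on the cadmium arrays, while Pfkp by 97833_at runs from 0.10 to 1.84, and in 12 h ectoderm Pfkl on cadmium array 2 lies at -0.77, below the other 2 cadmium arrays.

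The promoters of these genes differ in the letters that HIF-1 and the metal-responsive factor MTF-1 are known to recognise. The windows are the 250 bases before each start site in RefSeq (build GRCm38.p6), which listed 14 starts for the 10 genes. Capitals mark either ACGTG, a form of the HIF-1 core, or TGCACNC or TGCGCNC, the core of the metal response element, searched on both strands. The HIF-1 core can also read GCGTG, which was not searched and is not marked. The window of Hk2, a gene with 2 matches to ACGTG that passed the threshold in no comparison, is not shown. Pfkp and Pfkl are shown because they rose, and Ldha and Pgk1 as picked examples of genes with more than 1 match that passed in none. They come from chr13:6648772-6649021 (minus strand), chr10:78009808-78010057 (minus strand), chr7:46845554-46845803 (plus strand) and chrX:106186850-106187099 (plus strand), in the order given, each written 5′ to 3′ along its gene:
Pfkp: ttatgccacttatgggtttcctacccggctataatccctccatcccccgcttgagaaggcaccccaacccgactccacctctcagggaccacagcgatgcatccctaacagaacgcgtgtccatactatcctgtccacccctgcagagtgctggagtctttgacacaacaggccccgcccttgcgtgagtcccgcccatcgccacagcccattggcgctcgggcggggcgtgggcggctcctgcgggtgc
Pfkl: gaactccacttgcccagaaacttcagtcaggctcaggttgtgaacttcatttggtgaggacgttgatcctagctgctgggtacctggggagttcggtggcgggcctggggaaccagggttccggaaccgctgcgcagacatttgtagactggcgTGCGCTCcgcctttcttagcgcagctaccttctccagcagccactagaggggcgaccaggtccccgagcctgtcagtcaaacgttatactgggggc
Ldha: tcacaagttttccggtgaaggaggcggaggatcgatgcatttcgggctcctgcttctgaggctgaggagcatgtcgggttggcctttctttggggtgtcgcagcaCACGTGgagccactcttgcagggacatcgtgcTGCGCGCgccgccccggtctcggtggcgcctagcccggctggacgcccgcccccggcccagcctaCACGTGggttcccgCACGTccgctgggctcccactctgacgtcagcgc
Pgk1: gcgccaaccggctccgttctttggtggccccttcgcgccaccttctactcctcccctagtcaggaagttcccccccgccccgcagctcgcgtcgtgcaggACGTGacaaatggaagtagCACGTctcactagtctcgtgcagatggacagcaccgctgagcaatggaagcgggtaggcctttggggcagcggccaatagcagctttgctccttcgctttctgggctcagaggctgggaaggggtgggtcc

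ACGTG is in 16.57% of the 32841 promoter windows of the table and in 7 of the 14 windows of these genes, at least 1 window for 6 of the 10 genes. The Ldha window has 5 matches counted on both strands, because its CACGTG is read as a match each way, and the Pgk1 window has 2. The windows of Pfkp, Pfkl, Tpi1 and Hk1 hold no ACGTG. The unsearched form GCGTG can be read in the printed windows of Pfkp and Pfkl, so they do not lack the HIF-1 core. The metal core is in 21.41% of all windows and in 8 of the 14, at least 1 window for 6 of the 10 genes. The Pfkl window has 1 match, TGCGCTC, and that of Pfkp has none. Overlapping windows of Aldoa share the same ACGTG and the same metal core, so these matches are counted in more than 1 window. A match is a description of the letters, and a window without one says nothing about the factor elsewhere in the gene.

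In ectoderm 12 h after cadmium, Pfkp again had the largest effect of the 10 genes (0.83 ± 0.54) with an interval that includes 0. No gene of the 10 passed by limma, where 0.0242% of all genes did, and 0 of the 10 had an unadjusted p under 0.05, which 4.45% of all genes had. This was the comparison with the widest spread of the 8. By 97833_at Pfkp was at 0.26, -0.10 and 1.83 on cadmium arrays 1, 2 and 3 and at -0.23, 0.20 and 0 on the PBS arrays. By 97834_g_at it was at 0.54, -0.39 and 2.68. The ratio of cadmium array 3, which a low PBS array 3 could also raise, carried the effect, and cadmium array 2 lay among the PBS arrays.

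Cadmium array 2 of 12 h ectoderm stood below its fellows for most of the pathway, with a median log2 ratio of -0.31 over the 10 genes, against 0.27 and 0.26 on cadmium arrays 1 and 3. Pfkl was at 0.53, -0.77 and 0.80, Tpi1 at 0.51, -0.46 and 0.33, and Hk1 at 0.42, -0.17 and 0.46 on cadmium arrays 1, 2 and 3. In each of these genes 2 cadmium arrays were above all PBS arrays and array 2 was not. The Gapdh control probes, which read the 3′ and the 5′ end of 1 transcript, differed by 1.80 in log2 ratio on this array, against -0.67 and 0.44 on arrays 1 and 3 and at most 0.42 on the PBS arrays. The same pair for actin did not set the array apart, with 0.08 on it, 0.02 and 0.07 on arrays 1 and 3 and at most 0.40 on the PBS arrays. The part of RNA quality in these values was not tested. Without this array the effects were 1.22 for Pfkp, 0.65 for Pfkl, 0.62 for Aldoa, 0.45 for Hk1 and 0.44 for Tpi1, with adjusted p of at least 0.237. Leaving it out thus raised the effect of Pfkl from 0.19 to 0.65 and brought no call. Leaving out the other cadmium arrays lowered the effects: Pfkl was at -0.09 without array 1 and -0.11 without array 3, Tpi1 at -0.12 without array 1, and Pfkp at 0.12 without array 3.

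Slc2a1 was the gene of the 10 with the lowest effect in 12 h cadmium ectoderm (-0.44 ± 0.44). Its ratios were -0.36, -0.84 and -0.13 on the cadmium arrays and -0.11, 0.10 and 0 on the PBS arrays. All cadmium arrays were below all PBS arrays, cadmium array 3 by little, where 5.72% of all genes were separate in that direction. Averaged over its 2 probe sets Hk2 had all cadmium arrays above all PBS arrays there, as did 4.33% of all genes, with an effect of 0.13, but the groups overlapped in each probe set alone. Pgam1 had an effect of -0.22 ± 0.17, Ldha one of -0.06 ± 0.15 and Pgk1 one of -0.07 ± 0.26.

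At 3 h after cadmium, phosphofructokinase was not higher. Pfkp had an effect of -0.40 ± 0.35 in ectoderm and -0.41 ± 0.29 in mesoderm, and Pfkl of 0.00 ± 0.23 and -0.06 ± 0.19. No gene of the 10 passed in either tissue, where 0% of all genes did, and 0 of the 10 were under an unadjusted p of 0.05 by limma (3.32% of all genes in ectoderm and 3.09% in mesoderm). In ectoderm Slc2a1 was at -0.34, -0.34 and -0.37 on the cadmium arrays and at -0.11, 0.11 and 0 on the PBS arrays. The cadmium arrays were close together and below all PBS arrays, but the effect of -0.34 ± 0.28 did not pass (adjusted p = 0.999). Pfkp, averaged over its probe sets, was also separate downwards there, so that 2 of the 10 were, as were 3.82% of all genes. By 97833_at its cadmium arrays read -0.48, -0.27 and -0.30, below all PBS arrays, and by 97834_g_at they read -0.65, -0.05 and -0.69, with array 2 among the PBS arrays. Pgam1 was separate downwards in mesoderm, as were 4.18% of all genes, by -0.05 ± 0.09. In mesoderm the cadmium arrays of Slc2a1 read -0.30, 0.29 and -0.08 and spanned the PBS arrays. The other 6 genes had effects from -0.13 to 0.07 over both tissues.

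The change from 3 h to 12 h was tested in the same model as the difference of both effects. In cadmium mesoderm it was 1.46 ± 0.40 for Pfkp (adjusted p = 0.113 by limma), 0.89 ± 0.26 for Pfkl (0.149), 0.52 ± 0.16 for Tpi1 (adjusted p = 0.206) and 0.45 ± 0.19 for Aldoa (adjusted p = 0.458). These 4 had an unadjusted p under 0.05, which 8.63% of all genes had, and none of the 10 passed after adjustment, where 0.460% of all genes did. Without PBS array 2 of 3 h mesoderm Pfkl passed (difference 1.08, adjusted p = 0.0328), and without PBS array 1 of 12 h mesoderm Pfkp did (1.73, adjusted p = 0.0423). In cadmium ectoderm the difference for Pfkp was 1.24 ± 0.64 (adjusted p = 0.971). There 0.0121% of all genes passed, and 0 of the 10 had an unadjusted p under 0.05, which 3.49% of all genes had. After acetazolamide 0 of the 10 had such a p either, against 3.17% of all genes in ectoderm and 2.31% in mesoderm, and 0% passed.

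No difference between tissues passed for any of the 10 genes by limma. In each of the 4 tissue contrasts 0% of all genes passed, and 0 of the 10 had an unadjusted p under 0.05. The share of all genes with such a p was 0.824% at 3 h and 1.38% at 12 h after cadmium, and 1.70% at 3 h and 2.79% at 12 h after acetazolamide. After 12 h of cadmium the ectoderm effect minus the mesoderm effect was -0.22 for Pfkp (95% interval -1.47 to 1.03), -0.64 for Pfkl (-1.45 to 0.18) and -0.60 for Slc2a1 (-1.60 to 0.41). These intervals are wide enough to hold both no difference and differences larger than the effects themselves. A smaller response of ectoderm is therefore not shown. The tests treat the tissues as independent, although same-numbered arrays may hold ectoderm and mesoderm of the same limb buds, which the labels do not say. Over genes, the difference between treated arrays 1 and 2 in ectoderm correlated with that in mesoderm at -0.09 (3 h) and -0.16 (12 h) for cadmium, and at 0.38 (3 h) and 0.57 (12 h) for acetazolamide.

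After acetazolamide, no gene of the 10 passed in any tissue or at any time. All genes passed at a share of 0.0242% in 3 h ectoderm, 0.0364% in 3 h mesoderm, and 0% in both tissues at 12 h. At an unadjusted p under 0.05 there was 1 of the 10 in the 4 comparisons, Pfkl in 3 h mesoderm, with an effect of -0.56 ± 0.25 (adjusted p = 0.638), where 7.36% of all genes had such a p. The share was 6.86% in 3 h ectoderm, 7.86% in 12 h ectoderm and 0.788% in 12 h mesoderm. In 3 h mesoderm Pfkl was at -0.77, -0.71 and -0.32 on the acetazolamide arrays and at -0.48, 0.36 and 0 on the oil arrays. Acetazolamide arrays 1 and 2 were below all oil arrays, and array 3 lay among the oil arrays. The actin 3′ and 5′ probes differed by 1.55, 1.10 and -0.03 on acetazolamide arrays 1, 2 and 3. On oil arrays 1, 2 and 3 they differed by 1.30, -0.24 and 0. The arrays with the lowest Pfkl ratios were thus those with the largest actin differences. The part of RNA quality in this effect was not tested.

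Pfkp was above 0 on most acetazolamide arrays at 12 h but scattered. In 12 h mesoderm 97833_at read 0.54, 1.49 and -0.39 on the acetazolamide arrays and -0.04, 0.04 and 0 on the oil arrays, and 97834_g_at read 0.59, 2.13 and -0.24. Array 2 was the highest by far and array 3 the only one below the oil arrays. The effect was 0.69 ± 0.39, and 0.19 without acetazolamide array 2, on which the Gapdh 3′ and 5′ probes differed by 1.72, against -0.19 and -0.05 on the other acetazolamide arrays and 0.69 at most on the oil arrays. The actin pair differed by 0.39 on that array, close to 0.33 on array 1, and by 0.05 on array 3. Without acetazolamide array 3, or without oil array 3, the Pfkp effect was 1.19 (adjusted p = 1 for either). The part of RNA quality in this value was not tested. In 12 h ectoderm the effect of Pfkp was 0.67 ± 0.46, with acetazolamide arrays at 0.32, 0.84 and 0.02 by 97833_at and oil arrays at -0.30, 0.25 and 0. In 3 h ectoderm all acetazolamide arrays of Pfkp were above all oil arrays, as in 4.76% of all genes, with an effect of 0.45 ± 0.37.

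Hk1 was the other gene with separate arrays after acetazolamide. In 12 h ectoderm it was at 0.37, 0.32 and 0.13 on the acetazolamide arrays and within 0.01 of 0 on the oil arrays, with an effect of 0.27 ± 0.16 (adjusted p = 0.657), where 8.48% of all genes were separate upwards. Pgk1 had effects of 0.28 ± 0.18 in 3 h ectoderm and 0.30 ± 0.18 in 3 h mesoderm. In ectoderm it came from the ratio of array 3 alone, at 0.97, with arrays 1 and 2 at -0.11 and -0.02. Slc2a1 was at 0.25, -0.40 and 0.63 on the acetazolamide arrays of 3 h ectoderm, and its effects in the 4 acetazolamide comparisons ran from -0.16 to 0.16. Ldha effects ran from -0.04 to 0.05 in these comparisons.

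Cadmium and acetazolamide have separate vehicle arrays, so their effects could be set against each other. At 12 h in mesoderm Pfkl was higher after cadmium than after acetazolamide by 0.95 ± 0.31 in log2 (95% interval 0.31 to 1.59), with an unadjusted p under 0.05, as for 3.94% of all genes. After adjustment the p was 0.781, and none of the 10 passed in any of the 4 contrasts of the agents, where at most 0.0121% of all genes did. In the other 3 contrasts 0 of the 10 had an unadjusted p under 0.05, against 6.28% of all genes in 3 h ectoderm, 2.81% in 3 h mesoderm and 11.7% in 12 h ectoderm. For Pfkp the difference was 0.36 (95% interval -0.62 to 1.34).

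Ldha varied least of the 10. Over the 24 treated arrays its log2 ratio had an SD of 0.12 and ran from -0.29 to 0.20, whereas Pfkp had an SD of 0.81 and ran from -0.74 to 2.25. Slc2a1 (SD 0.42) and Pfkl (SD 0.51) lay between. These SDs hold array scatter as well as agent effects.

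The 3 genes with 2 probe sets differed in how well the sets matched. Over the 24 treated arrays the correlation was 0.97 for Pfkp and 0.93 for Aldoa, and -0.07 for Hk2. The probe sets of Hk2 come from different transcript entries, AV085600 and Y11666. In 12 h acetazolamide ectoderm 161313_at read -0.31, -0.27 and -0.18 on the treated arrays, all below the oil arrays, while 94375_at read 0.30, 0.56 and 0.14. The averaged Hk2 effect there, 0.05, thus stands for probe sets that went opposite ways, and Hk2 can be read in these data only by probe set. In 12 h cadmium mesoderm 161313_at read -0.02, 0.00 and -0.20 and 94375_at read -0.33, -0.25 and 0.06, with the groups overlapping in both.

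**Figure D4:**
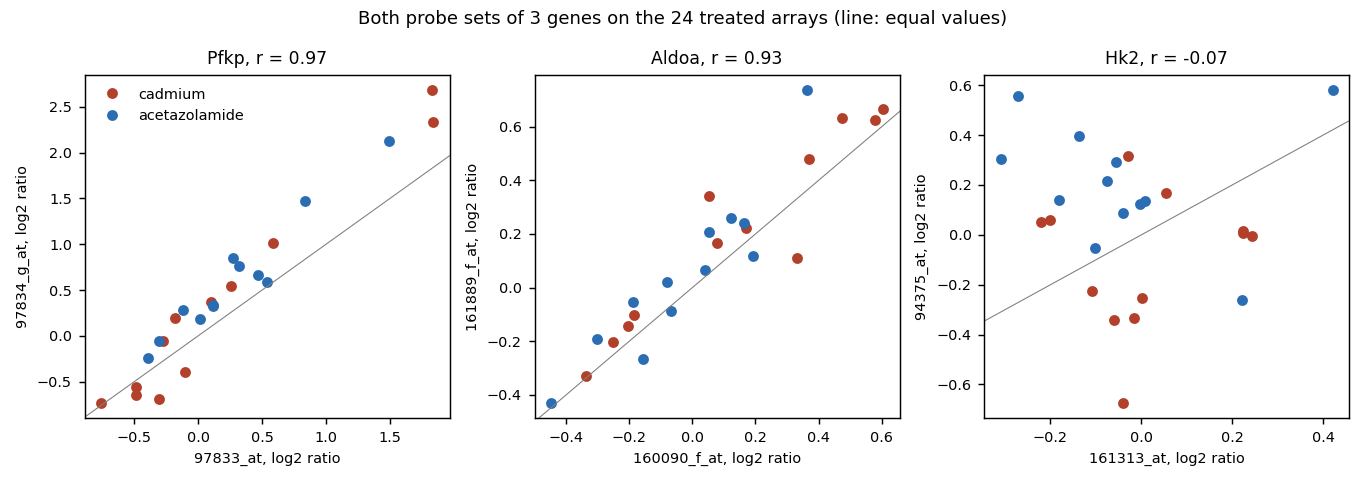
Log2 ratio to vehicle arrays by one probe set (horizontal axis) and the other (vertical axis) of Pfkp, Aldoa and Hk2 on the 24 treated arrays, cadmium in red and acetazolamide in blue, with a line of equal values. Pfkp (r = 0.97) and Aldoa (r = 0.93) lie along the line, and Hk2 (r = -0.07) does not.

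Across the 24 treated arrays, Tpi1 and Aldoa had the highest correlation of any pair of the 10 genes (r = 0.91), Pfkl and Aldoa had 0.74, and Pfkp and Tpi1 0.72. The lowest was -0.22, for Pfkl and Hk2. Outside the 10, the genes whose log2 ratios were most like those of Pfkp were Pgm1, which encodes a phosphoglucomutase of glycogen metabolism (r = 0.90), P4ha1, a collagen prolyl hydroxylase subunit (0.85), and Grhpr, glyoxylate reductase (0.79). For Pfkl they were Pkm, the pyruvate kinase gene (0.84), Gnb2, a G protein beta subunit (0.83), and Phlda3, a target of p53 (0.82). For Slc2a1 they were Igtp, an interferon-induced GTPase (0.76), Bhlhe40, a transcriptional repressor (0.71), and Ndrg1, a hypoxia-induced gene (0.64). These are descriptions over arrays that share denominators and RNA quality, and the genes were picked as the highest of all.

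The rest of the pathway gave no call in 12 h cadmium mesoderm. Of 15 other measured glycolysis genes 0 passed by limma and 4 had an unadjusted p under 0.05, all higher, where 6.73% of all genes did: Aldoc, the brain aldolase (0.37 ± 0.14), Pfkm, the muscle phosphofructokinase (0.30 ± 0.13), Pkm (0.28 ± 0.11) and Ldhb, the other lactate dehydrogenase subunit (0.21 ± 0.08). Their adjusted p was at least 0.153, and the median effect of the 15 was 0.02, close to that of all genes. Aldoc and Ldhb were also the glycolysis genes with an unadjusted p under 0.05 in 12 h cadmium ectoderm, at 0.81 ± 0.28 and 0.44 ± 0.15 (adjusted p = 0.758 for both). Of 9 other genes of glucose and lactate transport none passed and none had an unadjusted p under 0.05. Their largest effects were -0.41 ± 0.20 for the monocarboxylate transporter gene Slc16a1, 0.35 ± 0.22 for its partner Bsg and 0.17 ± 0.14 for Slc16a7.

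Downstream of glycolysis, the main fit called 2 genes after 12 h of cadmium in mesoderm, and neither call held in every alternative setting. Of all 8252 genes, 2.28% were called in that comparison, 87 as higher and 101 as lower. Dlat, the acetyltransferase subunit of the pyruvate dehydrogenase complex, fell by 0.33 on the log2 scale (SE 0.07, adjusted p = 0.00338 by limma) and was 1 of 9 genes of pyruvate entry to the mitochondrion. Its probe sets disagreed, with -0.67 by 96746_at (adjusted p = 0.00108) and 0.0035 by 96745_at (adjusted p = 0.999). Idh2, the mitochondrial NADP-dependent isocitrate dehydrogenase, rose by 0.41 ± 0.11 (adjusted p = 0.0425) and was 1 of 19 citrate cycle genes. It passed in only 3 of 14 alternative settings, and its effect ranged from 0.35 to 0.49. The call was lost without any 1 of the PBS arrays or cadmium arrays 2 and 3 (adjusted p from 0.0714 to 0.211), while that of Dlat held without each array of the comparison. The Dlat call was lost without weights (adjusted p = 0.123), without weights and denominator means (0.0731) and in a fit of the compared arrays alone (0.218). Among 14 genes of gluconeogenesis and glycogen none passed, with Pgm1 at 0.59 ± 0.19 (adjusted p = 0.104) and Gyg, the glycogen primer, at 0.39 ± 0.12 (adjusted p = 0.0938). Of 8 pentose phosphate genes none passed, and the largest effect was -0.43 ± 0.15 for Rpia.

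Other genes of the hypoxia response did not pass either. Of 22 measured in 12 h cadmium mesoderm 0 passed by limma, 2 had an unadjusted p under 0.05 (13.8% of all genes), 1 higher and 1 lower, and the median effect was 0.09. Of the 22 effects 17 were above 0, against 54.4% of those of all genes. Ddit4, an inhibitor of mTOR signalling induced by stress and low oxygen, was at 0.95 ± 0.33 (adjusted p = 0.137), and Hif1a, which encodes the oxygen-regulated subunit of HIF-1, at -0.66 ± 0.19 (adjusted p = 0.0617). In 3 h acetazolamide ectoderm 7 of the 22 effects were above 0, against 38.9% of those of all genes. The median was -0.07, and that of all genes -0.04. The 2 highest were Ndrg1 at 1.23 ± 0.46 (adjusted p = 0.63) and Bnip3, a mitophagy receptor gene, at 0.83 ± 0.39 (adjusted p = 0.698). Pdk1 of the pyruvate list, the kinase that shuts off pyruvate dehydrogenase, was at 0.64 ± 0.26 (adjusted p = 0.659).

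**Figure D5:**
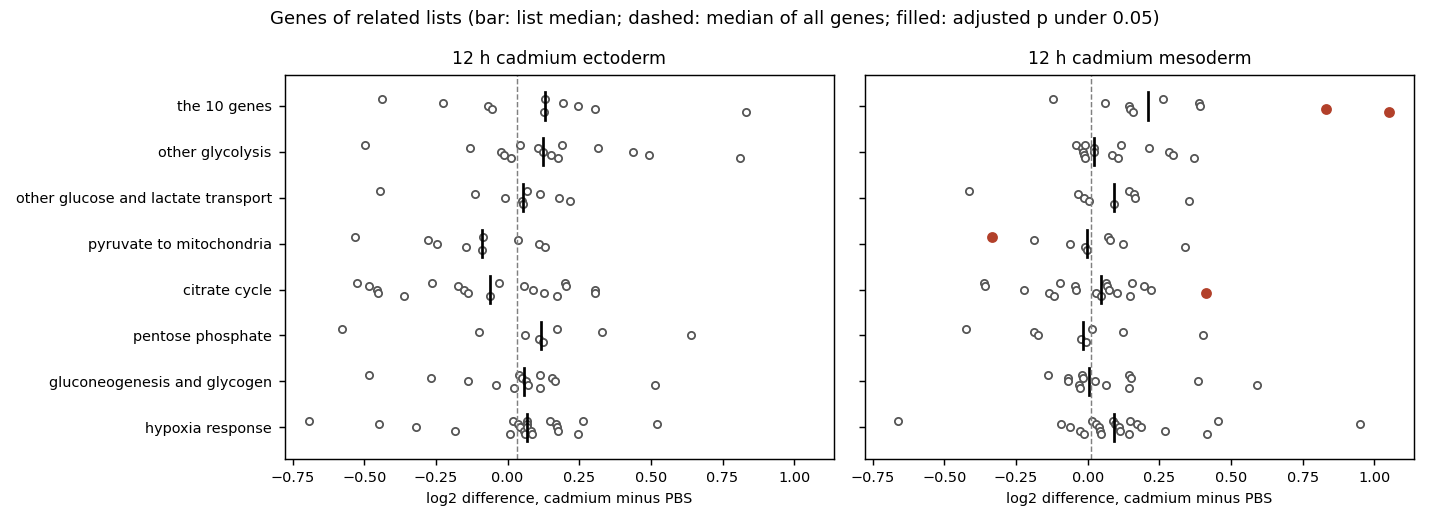
Effects (log2 difference, cadmium minus PBS, horizontal axis) on each gene of 8 metabolic lists in 12 h ectoderm (left) and 12 h mesoderm (right), each circle a gene, filled where the adjusted p by limma was under 0.05, with the list median as a bar and the median of all genes as a dashed line. In mesoderm the median of the 10 genes, 0.21, lies to the right of that of the 15 other glycolysis genes, 0.02.

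Some markers of other cell types also rose in 12 h cadmium mesoderm. In that comparison the mean log2 ratio of 12 endothelial markers ran from 0.14 to 0.47 on the cadmium arrays and from -0.09 to 0.07 on the PBS arrays. All 12 effects were above 0 (median 0.21). All 12 were above 0 in 12 h cadmium ectoderm as well (median 0.16), as were 57.6% of all genes, and there 0 of the 12 passed. In 12 h cadmium mesoderm 54.4% of all genes were above 0. Of the 12 endothelial genes 2 rose in mesoderm, where 1.05% of all genes did. They were Tie1, an endothelial receptor (0.63, adjusted p = 0.00187), and Eng, a TGF-beta co-receptor (0.58, adjusted p = 0.0425). Without either array 3 Tie1 still passed (adjusted p = 0.0308), and Eng did not (0.313), nor without PBS array 1 (0.129) or cadmium array 2 (0.0831). Of 15 red blood cell markers 2 rose as well, against the same share of all genes: Alas2, the first enzyme of heme synthesis in red cells (0.53, adjusted p = 0.0169), and Nfe2, an erythroid transcription factor (0.40, adjusted p = 0.0425). Both lost the call without either array 3 (adjusted p = 0.38 and 0.474), and Nfe2 also without PBS array 1 (0.145) or cadmium array 2 (0.122). Without weights Eng, Alas2 and Nfe2 did not pass (adjusted p = 0.654, 0.279 and 0.425 by limma). Of the 15 red blood cell effects 11 were above 0, and the lowest was -0.25. The red blood cell mean ran from -0.05 to 0.34 on the cadmium arrays and from -0.09 to 0.06 on the PBS arrays. The 22 ectoderm markers ran from 0.02 to 0.14 and from -0.08 to 0.07 on cadmium and PBS arrays, the 14 mesoderm markers from -0.19 to 0.10 and from -0.15 to 0.10, and the 8 macrophage markers from -0.02 to 0.05 and from -0.02 to 0.01, with 0 genes of these 3 lists passing by limma. In 3 h cadmium mesoderm, the earlier side of the 12 h minus 3 h contrast, the ectoderm marker mean ran from 0.10 to 0.26 on the cadmium arrays. On the PBS arrays there it ran from -0.03 to 0.01. Of the 22 ectoderm marker effects there 19 were above 0, against 50.3% of those of all genes, and 0 passed. The part of tissue makeup in the 12 h minus 3 h differences was not tested. As levels were not kept, whether a defining marker is near 0 is unknown. The part of these cell types in the rise of Pfkp and Pfkl was not tested. The Gapdh 3′ and 5′ probes differed by -0.25 between cadmium and PBS arrays in 12 h mesoderm, by 0.49 in 12 h ectoderm, and by 0.41 to 0.59 between acetazolamide and oil arrays. For the actin pair these differences were -0.07, 0.0021 and 0.23 to 0.52.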

How the data were processed

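Each of 48 Affymetrix arrays has 1 deposited ratio per probe set, relative to vehicle arrays, as read from the values. The array software and the normalization are not given in the sources used here. Per the labels' protocols, RNA came from pooled litters, while the design text calls the extracts non-pooled. Ratios were converted to log2, and the 10855 probe sets naming 1 gene were averaged over 8252 genes (396 named several genes and 1237 none). Names come from the platform annotation, and 0 of 10839 symbols checked through Entrez changed. Limma 3.58.1 in R 4.3.3 was fitted to all arrays with 8 agent effects, 16 denominator means (1 for arrays 1 and 2 and 1 for array 3 in a comparison), 24 residual degrees of freedom and 1 precision weight per comparison, and was tested on simulated data. That treated arrays share the denominators of same-numbered vehicle arrays is an inference. The threshold was 0.05 after Benjamini-Hochberg adjustment over all genes, and intervals are at 95%.

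The members, gene lists and tests were chosen with earlier results of these data known. All 10 genes are named whatever their values. From the other lists, genes passing the threshold and up to 3 of the largest effects are named, and Ldhb, Pdk1, Tie1, Eng, Alas2 and Nfe2 by their p-values or effects after these were seen. Like patterns are the 3 highest correlations. Alternatives were no weights, no denominator block, a replicate block, robust eBayes, median centring, subsets of arrays, single probe sets and each array left out. Array number limits the precision.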

Additional observations from a re-analysis of the deposited data

How the results depend on the processing

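The 2 calls in 12 h cadmium mesoderm, Pfkp and Pfkl, fell to 0 without weights, 0 without weights and denominator means, 0 from arrays 1 and 2 alone and 0 in a fit of the compared arrays alone (all genes called: 22, 34, 29 and 0, against 188). Leaving out 1 array at a time gave 0 to 3 of the 10 genes in that comparison (58 to 361 of all genes) and 0 to 1 in the 12 h minus 3 h contrasts (6 to 96 of all genes), with 0 in the other tests of the 10. Robust eBayes, median centring and single probe sets kept the count at 2. Of 78 uncalled effects 2 passed in some setting, Tpi1 and Aldoa in 12 h cadmium mesoderm, and 47 changed sign in some setting, while 0 of the 2 called effects did. Only centring, leaving out arrays and single probe sets could change a sign, as the other settings leave the effects unchanged. Over the alternatives the adjusted p by limma ran from 0.00945 to 0.666 for Pfkp and from 0.00391 to 0.427 for Pfkl. The Dlat effect by 96745_at alone was 0.0035. The settings for Dlat, Idh2, Tie1, Eng, Alas2 and Nfe2 were chosen after seeing the data.

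With the array number as a replicate block, 4 of the 10 genes passed in 12 h cadmium mesoderm (Pfkp, Pfkl, Tpi1 and Aldoa) and 459 of all genes. The labels do not say that a number pairs arrays, so the numbers were not taken as pairs. A check of pairing by array number gave a correlation above 0.1 in 3 of 8 comparisons (-0.20 to 0.65). The highest value, 0.65, was that of 12 h cadmium mesoderm, the comparison with these 4 calls. Whether its arrays are pairs cannot be told from the labels, and the main fit does not treat them as such. No filter on dim probe sets was run, as no level was kept.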
